A study of Mus musculus with 6 samples.

Results

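The complement system was followed in mouse hippocampus through 9 genes: C1qa, C1qb, C1qc, C3, C4b, Serping1, C3ar1, C5ar1 and Itgam. They were chosen by name, as components, a regulator and receptors of complement, and all 9 had a row among the 29872 genes of each deposited file. RNA sequencing covered 6 hippocampus libraries of C57BL/6 J mice, 3 labelled shControl with the genotype WT and 3 labelled shHepaCAM with the genotype HepaCAM knockdown. To lower hepaCAM, an adhesion molecule of astrocytes, AAV (adeno-associated virus, a carrier of genes into cells) was injected into the CA1 field on both sides. The same injection text stands on all 6 libraries, so the labels do not show whether shControl mice received a vector. The sources used here do not give the age and sex of the mice, the promoter of the hairpin, the time after injection or the number of mice behind a library. The p-values therefore reflect only how far these libraries spread, and that spread may be technical.

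Complement is a protein cascade of innate immunity. In its classical pathway C1q, a protein built from the A, B and C chains, binds a target such as an antibody and activates the proteases C1r and C1s. These cleave C4 and C2, the resulting enzyme cleaves the central component C3, and the fragments of C3 and C5 mark surfaces and signal to cells through receptors. In brain, C1q comes mainly from microglia, and complement is known for tagging synapses for removal by microglia through complement receptor 3, of which Itgam encodes the alpha chain.

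In the knockdown libraries 6 of the 8 genes that could be tested rose: C1qa, C1qb, C1qc, C3, C4b and Serping1. None fell. C3 moved most, from 0.911 ± 0.323 to 8.32 ± 3.04 RPKM (SD, n = 3 each), while the C1q chains and Serping1 lay at 1.91 to 2.06 times and C4b at 2.38 times the control mean. The receptor genes C3ar1 and Itgam did not pass the test. C5ar1 averaged less than 1 RPKM over the libraries and was left out of the main test. RPKM are read numbers divided by transcript length and by the depth of the library, so levels can be compared between genes. The test was limma on log2(RPKM + 1) over the 13864 genes that averaged 1 RPKM or more, and rose or fell is written where the adjusted p was below 0.05. Across all genes tested, 6.07% were called, 4.23% higher and 1.84% lower. The groups did not overlap, with the knockdown libraries higher, for 8 of the 9 genes, all but C3ar1, as for 20.9% of genes tested and 14.4% of genes below the filter that averaged 5 reads or more. For these 8 the exact two-sided permutation p was 0.1, the smallest that 3 against 3 libraries allow. The median log2 change was 0.94 over the 8 complement genes tested and 0.05 over all genes tested. Because the 9 genes were picked with earlier results of these data known, this count describes them and does not test the group. In bulk tissue, more cells of a type and more RNA per cell cannot be told apart.

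**Figure D1:**
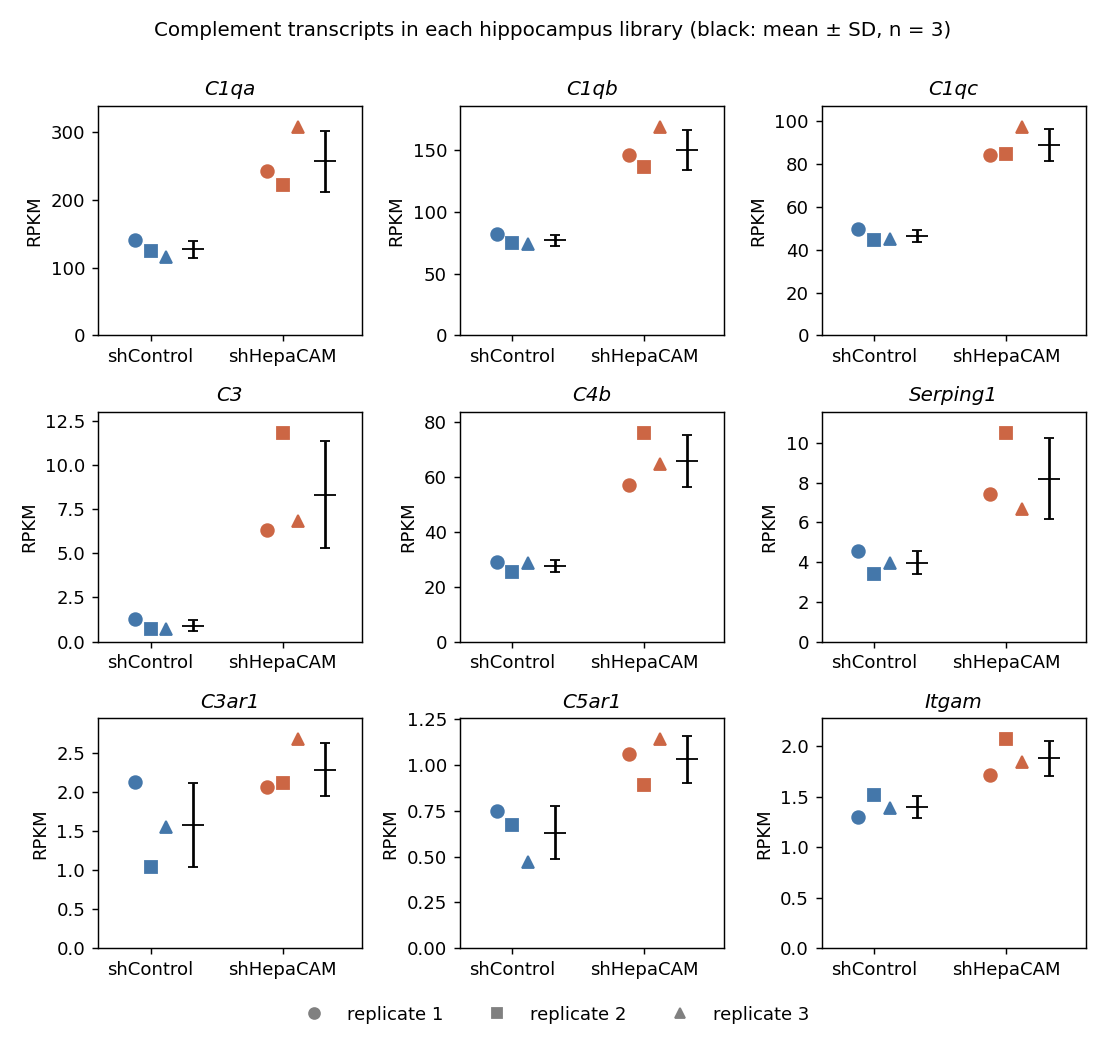
Level in RPKM (vertical axes, from 0) of the 9 complement genes in the 3 shControl (blue) and 3 shHepaCAM (orange) libraries; symbols mark the replicate number and black bars the mean ± SD (n = 3). The groups are apart for 8 of the 9 genes, and C3ar1 overlaps, with shControl replicate 1 at 2.13 RPKM above shHepaCAM replicate 1 at 2.07 RPKM.

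In control libraries the levels ran in the order C1qa, C1qb, C1qc, C4b and Serping1, with no overlap between neighbours. Below them C3ar1 overlapped Itgam and C3, and C3 overlapped C5ar1. In knockdown libraries C3, at 6.29 to 11.8 RPKM, overlapped Serping1, at 6.67 to 10.5 RPKM, and so stood in the middle of the 9 rather than near the end.

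Between 14903198 and 17341842 reads stood behind each library. Hepacam, the targeted gene, measured 37.3, 33.4 and 35.9 RPKM in the control and 24.4, 22.6 and 20.9 RPKM in the knockdown libraries, in the order of replicates 1, 2 and 3. Its log2 change was -0.63 (SE 0.07, limma adjusted p = 0.00924; 0.0533 without shControl replicate 3). The 9 markers of hippocampal neurons summed to 1050 to 1080 RPKM in control and 886 to 973 RPKM in knockdown libraries. Most of that sum is Camk2a, a kinase of excitatory neurons, which averaged 686 ± 14.3 and 543 ± 19.9 RPKM (SD, n = 3 each) and was the 1 marker called, lower (limma adjusted p = 0.0348). Of the 9, 5 had a log2 change above 0, with a median of 0.03. Libraries differed in choroid plexus, the tissue that makes cerebrospinal fluid. Ttr, its main transcript, measured 62.1, 4190 and 3620 RPKM in the control and 2280, 1660 and 25.5 RPKM in the knockdown libraries. Without shControl replicate 1 and shHepaCAM replicate 3, the lowest of each group, 5 complement genes still rose, and Serping1 was at 1.08 with an adjusted p of 0.0628, and Hepacam at -0.54 with an adjusted p of 0.0664.

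The C1q chains start the classical pathway and were the most abundant of the 9 transcripts. C1qa (ENSMUSG00000036887), the A chain, measured 141, 125 and 116 RPKM in shControl replicates 1, 2 and 3 and 242, 222 and 308 RPKM in shHepaCAM replicates 1, 2 and 3. The lowest knockdown library lay well above the highest control library, and shHepaCAM replicate 3 was the highest of all. The log2 change was 1.0 (SE 0.13, 95% interval 0.70 to 1.31, limma adjusted p = 0.0117). It missed the threshold without shControl replicate 2 (adjusted p = 0.0604) and without shControl replicate 3 (adjusted p = 0.0611).

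C1qb (ENSMUSG00000036905), the B chain, measured 82.0, 74.9 and 73.8 RPKM in the control and 146, 136 and 169 RPKM in the knockdown libraries, in replicate order. C1qc (ENSMUSG00000036896), the C chain, measured 49.6, 44.8 and 45.0 RPKM in the control and 84.4, 84.7 and 97.6 RPKM in the knockdown libraries. Both kept the pattern of C1qa, with no overlap of the groups and the highest value in shHepaCAM replicate 3. Their log2 changes were 0.95 (SE 0.09, limma adjusted p = 0.0052) and 0.92 (SE 0.08, limma adjusted p = 0.00394). Both were called under all 17 other settings tried, with adjusted p-values up to 0.0352 and 0.0345.

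The ratios between the chains overlapped between the groups. The ratio of C1qa to C1qb in RPKM was 1.65 ± 0.0745 in control and 1.70 ± 0.106 in knockdown libraries (SD, n = 3 each; exact two-sided permutation p = 0.6). The ratio of C1qb to C1qc was 1.65 ± 0.0172 and 1.69 ± 0.0663 (SD, n = 3 each; exact permutation p = 0.4). For C1qa to C1qc it was 2.73 ± 0.14 and 2.88 ± 0.264 (SD, n = 3 each; exact permutation p = 0.4). With 3 libraries a side the smallest exact p is 0.1, so these ratios bound a shift only through their spread.

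The C1q genes lie next to each other, in the order C1qb, C1qc and C1qa in the RefSeq annotation, on chromosome 4. RefSeq promoters (build GRCm38.p6) were matched by symbol for 6 of the 9 genes, all but C1qa, C4b and Serping1. The deposited values were made on another build, mm39. The promoters of C1qb and C1qc are shown because these neighbours moved together. Each run is the 250 bases before the transcription start, on the minus strand, chr4:136886201-136886450 for C1qb and chr4:136892915-136893164 for C1qc. Capitals mark matches to GAGGAA, the core of sites for PU.1, a transcription factor of myeloid cells, or to a reduced form of the NF-kB site (GGGA, any 3 bases, then CCC), on either strand.
C1qb: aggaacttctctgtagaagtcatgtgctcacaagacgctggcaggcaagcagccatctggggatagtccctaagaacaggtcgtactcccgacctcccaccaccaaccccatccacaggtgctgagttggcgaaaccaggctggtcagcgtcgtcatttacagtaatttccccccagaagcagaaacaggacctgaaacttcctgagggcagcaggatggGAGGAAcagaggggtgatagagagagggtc
C1qc: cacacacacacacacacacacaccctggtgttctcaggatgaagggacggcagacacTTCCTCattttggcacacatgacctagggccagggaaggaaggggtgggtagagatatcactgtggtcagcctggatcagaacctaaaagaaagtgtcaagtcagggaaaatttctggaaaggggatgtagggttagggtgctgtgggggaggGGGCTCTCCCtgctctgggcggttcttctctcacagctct
In C1qb the PU.1 core spans bases -30 to -25 before the start. In C1qc it lies on the other strand at -193 to -188, where the NF-kB form spans -40 to -31. The PU.1 core was also in the Itgam promoter, and so in 3 of 6 promoters matched, against 23.3% of 32851 RefSeq promoters of the same length. The NF-kB form was in 2 of 6, against 4.77%. No promoter of the 6 held the searched forms of interferon response sites, GAAA with GAAA after any 2 bases, or TTCNNNGAA, which were in 2.98% and 7.02% of all promoters, and the TATAAA box was in 1, that of C3ar1, against 12.4%. No marked matches overlapped, and a match is a description of letters, not of binding.

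The C1q chains were set beside 16 markers of microglia, the resident macrophages of brain. Of these, 7 rose, 0 fell and 9 did not pass, with a median log2 change of 0.49, and their summed level was 261 to 299 RPKM in control and 418 to 486 RPKM in knockdown libraries. Changes within the list were uneven. Ctss, a lysosomal protease, and Trem2, a lipid receptor, rose by 1.01 and 0.94, near the C1q chains. Aif1, Cx3cr1, Laptm5, Tyrobp and Csf1r rose by 0.85, 0.71, 0.59, 0.59 and 0.51. The log2(RPKM + 1) scale understates low genes. In mean RPKM, Aif1 was at 1.99 and Trem2 at 2.09 times control, and the C1q chains were at 1.91 to 2.02 times. P2ry12 and Tmem119, markers of resting microglia, were at 0.15 (95% interval -0.001 to 0.29, adjusted p = 0.209) and 0.21 (95% interval -0.002 to 0.42, adjusted p = 0.21).

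**Figure D2:**
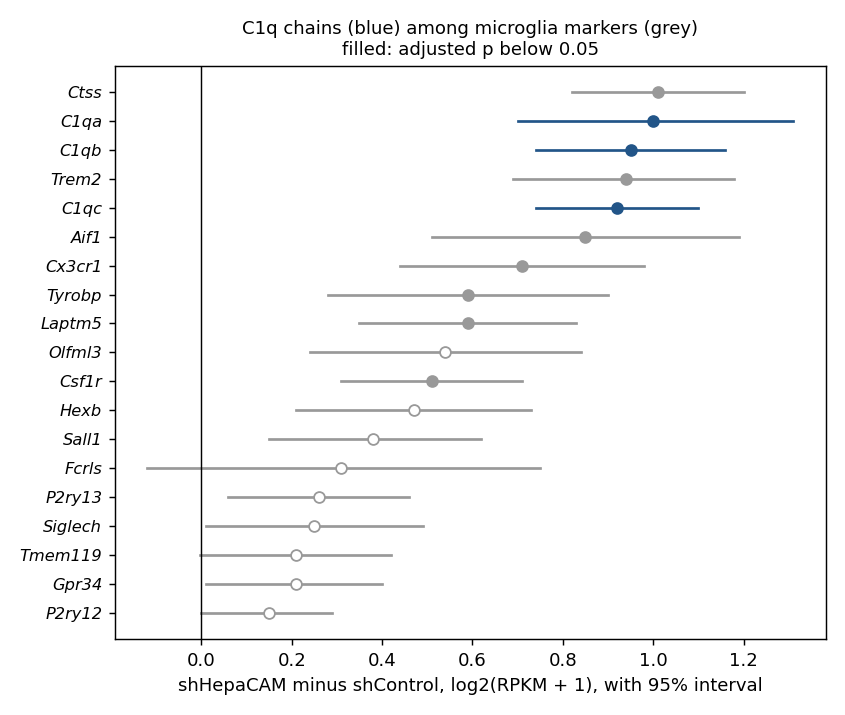
Difference between shHepaCAM and shControl in log2(RPKM + 1) (horizontal axis, with 95% interval from limma) for the C1q chains (blue) and 16 microglia markers (grey), ordered by size; filled points had an adjusted p below 0.05. The chains, at 0.92 to 1.0, lie beside Ctss and Trem2 at the top, and P2ry12 is lowest at 0.15.

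Within each library, the summed RPKM of the C1q chains was divided by each marker. Against P2ry12 the ratio was 26.7, 23.6 and 21.1 in control and 38.6, 37.9 and 50.2 in knockdown libraries, in replicate order. Against Tmem119 it was 17.8, 20.5 and 17.2 in control and 29.7, 28.6 and 36.0 in knockdown libraries. Both ratios were apart between the groups, at an exact two-sided permutation p of 0.1, the smallest that 3 against 3 allows. Against Ctss the ratio was 2.76 ± 0.0171 and 2.70 ± 0.311 (SD, n = 3 each; exact permutation p = 1). Of the 16 ratios, 11 were higher in every knockdown library than in any control library. Another 4, against Cx3cr1, Aif1, Olfml3 and Ctss, overlapped, and 1, against Trem2, was lower. The C1q chains were themselves higher in every knockdown library, so a ratio to any gene that changed less is raised by that alone. The share of such ratios over all genes was not computed, so the count is no result about microglia markers in particular. No adjustment over 16 such ratios can pass at this size, so these are descriptions.

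Among 8056 genes that averaged 5 RPKM or more, those whose values over the 6 libraries were closest to the mean of the C1q chains were Trem2, Rgs10, Ctss, Ddit3 and B2m. Closeness was the root mean square difference of log2(RPKM + 1) values centred on the control mean. It was 0.031 for Trem2, 0.075 for Rgs10 and 0.094 for Ctss. The C1q chains themselves lay at 0.018 to 0.059, but each is part of the mean it was measured against. Trem2 went from 5.45 ± 0.477 to 11.4 ± 1.54 RPKM (SD, n = 3 each). B2m, the light chain of MHC class I, went from 220 ± 18.6 to 431 ± 12.5 RPKM, and Ddit3, a transcription factor of the stress response, from 13.6 ± 0.347 to 27.7 ± 1.71 RPKM (SD, n = 3 each). Rgs10, a regulator of G protein signalling, went from 12.6 ± 1.32 to 24.8 ± 1.32 RPKM (SD, n = 3 each).

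The proteases that C1q activates were scarce. C1ra, encoding C1r, measured 0.961, 0.967 and 0.923 RPKM in control and 1.63, 2.18 and 1.56 RPKM in knockdown libraries, in replicate order. The groups were apart, with a log2 change of 0.51 (SE 0.13), but the adjusted p was 0.0627 in limma. The log2(RPKM + 1) scale understates a gene this low. In mean RPKM C1ra was at 1.88 times control, and with a pseudocount of 0.1 its log2 change was 0.83. C1ra passed the filter through its knockdown level, since its control libraries were all below 1 RPKM. Its adjusted p was below 0.05 with limma-voom on whole reads (adjusted p = 0.0402) and with limma without a trend (adjusted p = 0.0426). C1s1 and C1s2, encoding C1s, lay under the filter. C1s1 had 12, 23 and 19 reads in control and 35, 40 and 27 reads in knockdown libraries, and C1s2 had 10, 6 and 4 and then 20, 18 and 12 reads. Both were higher in every knockdown library than in any control library, as were 14.4% of the 4893 genes under the filter that averaged 5 reads or more. With no filter their adjusted p-values were 0.265 and 0.193.

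Serping1 (ENSMUSG00000023224) encodes C1 inhibitor, which blocks C1r and C1s. Its level was 4.58, 3.40 and 3.95 RPKM in control and 7.42, 10.5 and 6.67 RPKM in knockdown libraries, in replicate order. The groups were apart, and shHepaCAM replicate 2 stood above the other two. The log2 change was 0.87 (SE 0.16, 95% interval 0.49 to 1.25, limma adjusted p = 0.0304). Among the 6 calls this one was lost under the most settings, 6 of 17. It missed the threshold with each control library left out in turn (adjusted p of 0.0618, 0.109 and 0.113 without shControl replicates 1, 2 and 3) and with no filter on low genes (adjusted p = 0.0897).

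C4b (ENSMUSG00000073418) encodes complement C4, the substrate of C1s. It measured 29.0, 25.2 and 28.7 RPKM in control and 56.8, 75.9 and 64.5 RPKM in knockdown libraries, in replicate order. Every knockdown library lay above every control library, with shHepaCAM replicate 2 highest. The log2 change was 1.21 (SE 0.11, 95% interval 0.95 to 1.47, limma adjusted p = 0.00501), and it was called under all 17 other settings, between 1.11 and 1.31.

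C4a, on chromosome 17 with C4b, is a near-identical copy that RefSeq lists as a transcribed pseudogene, so reads can be assigned to either gene. C4a had 75, 92 and 78 reads in control and 52, 39 and 57 reads in knockdown libraries, the opposite direction to C4b. It lay under the filter, and with no filter its log2 change was -0.27 with a limma adjusted p of 0.288. Groups were apart and lower for 4.82% of genes under the filter that averaged 5 reads or more. Of the reads of both genes, C4a held 2.58% (exact binomial 95% interval 2.04 to 3.23), 3.57% (2.89 to 4.36) and 3.10% (2.46 to 3.86) in shControl replicates 1, 2 and 3. It held 1.01% (0.752 to 1.32), 0.556% (0.396 to 0.76) and 0.938% (0.711 to 1.21) in shHepaCAM replicates 1, 2 and 3. These intervals cover counting error only. C4a averaged 0.801 ± 0.0826 and 0.493 ± 0.0912 RPKM in the groups, beside 27.6 ± 2.13 and 65.7 ± 9.57 RPKM for C4b (SD, n = 3 each).

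**Figure D3:**
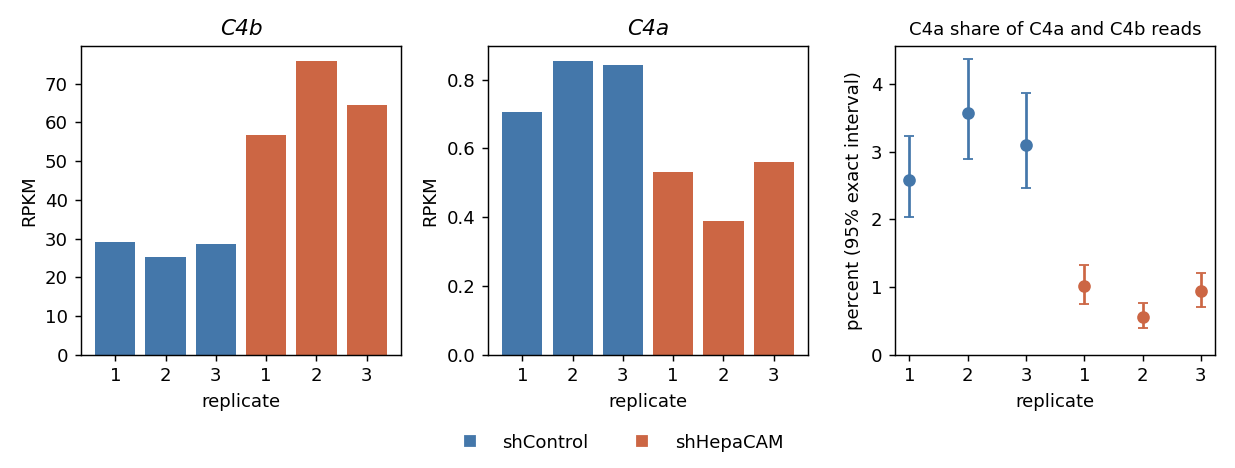
RPKM of C4b (left) and C4a (middle) in each library, as bars from 0, and the percentage of the reads of both genes assigned to C4a (right, with exact binomial 95% intervals); blue is shControl and orange shHepaCAM, numbered by replicate. C4b bars are higher and C4a bars lower in the knockdown libraries, and the C4a share is at most 1.01% there and at least 2.58% in control.

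C3 (ENSMUSG00000024164) encodes the component on which all complement pathways meet. It measured 1.28, 0.706 and 0.744 RPKM in shControl replicates 1, 2 and 3, from 113, 63 and 57 reads. It measured 6.29, 11.8 and 6.85 RPKM in shHepaCAM replicates 1, 2 and 3, from 512, 981 and 577 reads. All knockdown libraries were far above all control libraries, shHepaCAM replicate 2 most. Per unit of depth the pooled reads were 9.07-fold higher, with an exact counting interval of 7.92 to 10.4 that leaves out the spread between libraries. The log2 change on the log2(RPKM + 1) scale, which understates low genes, was 2.25 (SE 0.23, 95% interval 1.72 to 2.79, limma adjusted p = 0.0052). With a pseudocount of 0.1 it was 3.05, with limma-voom 3.17, and without shHepaCAM replicate 2 it was 2.00. C3 passed the filter through its knockdown level, since its control mean was below 1 RPKM.

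The C3 promoter is shown because C3 changed most. It is the 250 bases before the start on the minus strand, chr17:57228137-57228386 in GRCm38.p6. Capitals mark a match to TTGCNNAA, a form of the site of C/EBP transcription factors, at -45 to -38, and to the NF-kB form, on the other strand, at -33 to -24.
C3: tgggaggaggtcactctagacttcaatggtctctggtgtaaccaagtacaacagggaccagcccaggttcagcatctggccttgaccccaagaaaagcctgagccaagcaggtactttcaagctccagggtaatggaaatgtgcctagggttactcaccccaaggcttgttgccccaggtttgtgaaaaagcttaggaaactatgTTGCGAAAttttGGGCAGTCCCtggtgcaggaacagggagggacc
The C/EBP form was in 1 of the 6 promoters matched and in 9.56% of all RefSeq promoters of that length. C3 was thus 1 of 2 genes, with C1qc, that held the NF-kB form.

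Among the receptors, C3ar1 and Itgam did not pass the test, while the genes of the beta chain and of another alpha chain of the integrin receptors rose. C3ar1 (ENSMUSG00000040552), the receptor of the C3 fragment C3a, measured 2.13, 1.04 and 1.56 RPKM in control and 2.07, 2.12 and 2.68 RPKM in knockdown libraries, in replicate order. The groups overlapped through shControl replicate 1. Its log2 change was 0.37 (95% interval -0.04 to 0.77, limma adjusted p = 0.243). C5ar1 (ENSMUSG00000049130), the receptor of C5a, had 33, 30 and 18 reads in control and 43, 37 and 48 reads in knockdown libraries. The groups were apart at 0.47 to 0.75 and 0.892 to 1.14 RPKM, and with no filter the log2 change was 0.32 with a limma adjusted p of 0.301. In that fit 0.405% of all 29872 genes were called higher. The log2(RPKM + 1) scale understates genes as low as these receptors. In mean RPKM C3ar1 was at 1.45 and C5ar1 at 1.63 times control.

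Itgam (ENSMUSG00000030786), the alpha chain of complement receptor 3, measured 1.30, 1.52 and 1.39 RPKM in control and 1.72, 2.07 and 1.85 RPKM in knockdown libraries, in replicate order. The groups were apart, as they were for 20.9% of genes tested in this direction. The log2 change was 0.26 (95% interval 0.01 to 0.51, limma adjusted p = 0.193). In mean RPKM Itgam was at 1.34 times control. Its partner Itgb2, the shared beta chain of complement receptors 3 and 4, rose by 0.85 on the log2 scale (SE 0.08, limma adjusted p = 0.00518), with 4.33 ± 0.271 RPKM in control and 8.60 ± 0.582 RPKM in knockdown libraries (SD, n = 3 each). Itgax, the alpha chain of complement receptor 4, measured 1.12, 0.84 and 1.03 RPKM in control and 4.25, 5.08 and 6.40 RPKM in knockdown libraries. It rose by 1.63 (SE 0.14, limma adjusted p = 0.00428), and its control mean of 0.998 RPKM lay just below the filter. The ratio of Itgax to Itgam in RPKM was 0.719 ± 0.154 in control and 2.80 ± 0.582 in knockdown libraries (SD, n = 3 each; exact two-sided permutation p = 0.1), so the order of the alpha chains was reversed in every knockdown library.

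The rest of the pathway was described from a list of 56 other complement genes, of which 50 had a row and 25 passed the filter. Of these 25, 3 rose, Itgax, Itgb2 and Susd4, 0 fell and 22 did not pass, with a median log2 change of 0.17. Without a single library the number called was 2 or 3. Susd4, a membrane inhibitor of complement expressed by neurons, rose by 0.39 on the log2 scale (SE 0.07, limma adjusted p = 0.0281), with 46.7 ± 1.02 RPKM in control and 61.6 ± 5.11 RPKM in knockdown libraries (SD, n = 3 each). The call was lost in 10 of 17 other settings (adjusted p up to 0.129). It held without shHepaCAM replicate 1 (adjusted p = 0.0163) and was lost when any other single library was dropped.

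Apart from Serping1, none of the regulators in fluid that were tested passed. Clu, an abundant secreted inhibitor of the terminal complex, was at 336 ± 26.6 and 336 ± 20.7 RPKM (SD, n = 3 each; 95% interval of the log2 change -0.19 to 0.20). Vtn, vitronectin, was at 0.21 with an adjusted p of 0.354. In the alternative pathway, Cfp, properdin, was at 0.30 (adjusted p = 0.138), and Cfb, factor B, had 1, 3 and 1 reads in control and 2, 9 and 7 reads in knockdown libraries. Of the terminal pathway only C8g passed the filter (log2 change 0.18, adjusted p = 0.48). Hc, encoding C5, stood at 0.0551 ± 0.0375 and 0.0564 ± 0.0323 RPKM (SD, n = 3 each). Masp1, a lectin pathway protease, was at 0.22 (adjusted p = 0.338).

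**Figure D4:**
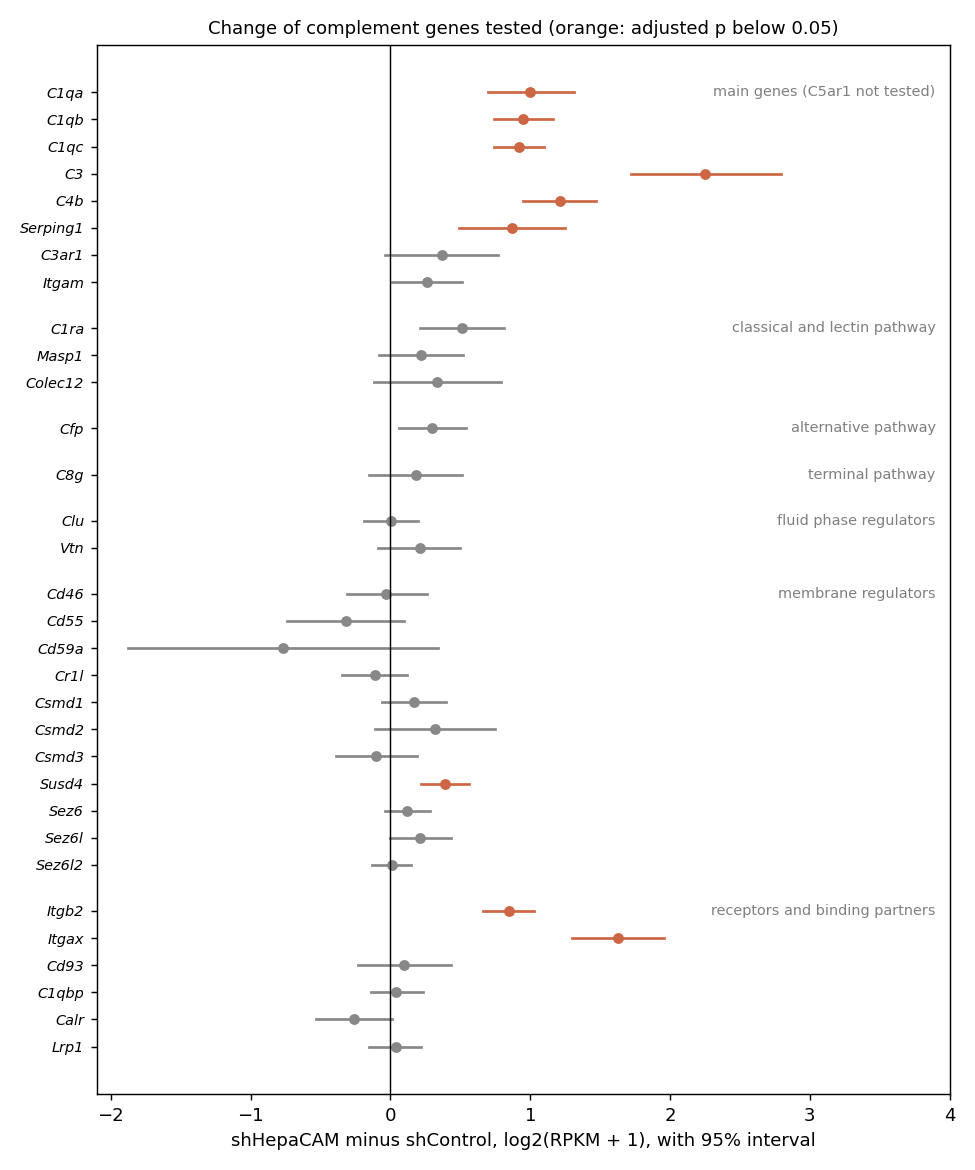
Difference between shHepaCAM and shControl in log2(RPKM + 1) with its 95% interval from limma (horizontal axis) for the 8 tested members of the 9 genes and 24 of the 25 other complement genes tested, by role; orange marks an adjusted p below 0.05. The changes called are all to the right of 0, with C3 at 2.25 and Itgax at 1.63 farthest out.

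Within the knockdown group the members did not share 1 order of libraries. C1qa, C1qb, C1qc, C3ar1 and C5ar1 were highest in shHepaCAM replicate 3. C3, C4b, Serping1 and Itgam were highest in shHepaCAM replicate 2. Relative to the control mean, the C1q chains stood at 0.85 to 0.93, 0.81 to 0.85 and 1.06 to 1.27 on the log2 scale in shHepaCAM replicates 1, 2 and 3. C3 stood at 1.95, 2.76 and 2.05, and Serping1 at 0.77, 1.22 and 0.63. With 3 libraries this split is a description of them.

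**Figure D5:**
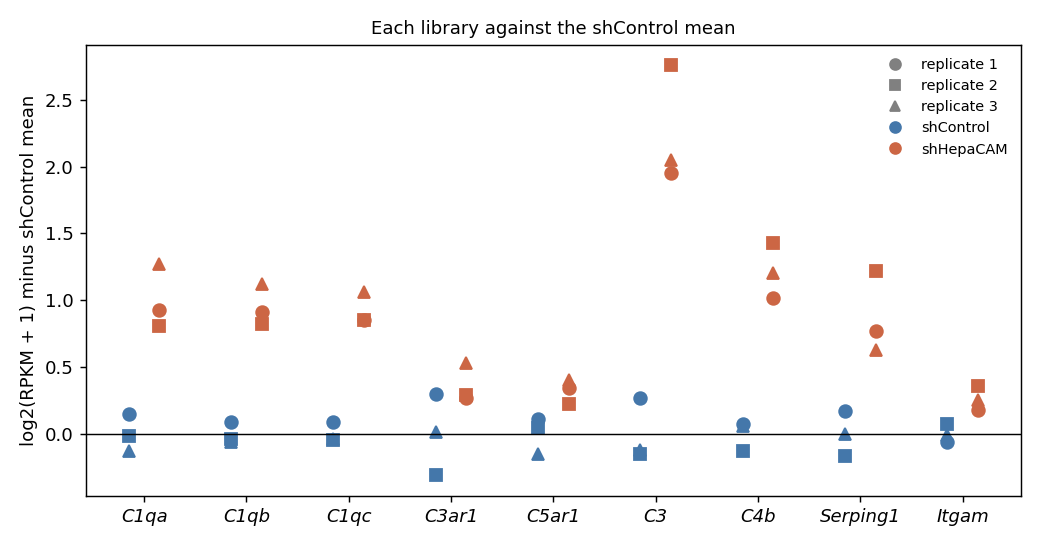
Log2(RPKM + 1) minus the shControl mean (vertical axis) for each of the 9 genes in every library; colour gives the group and symbol the replicate number. Triangles, shHepaCAM replicate 3, lead for the C1q chains, C3ar1 and C5ar1, and squares, shHepaCAM replicate 2, lead for C3, C4b, Serping1 and Itgam.

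For C4b, the closest profiles by the same measure were Nptx2, 1810010H24Rik, Abca1, AU020206 and Chac1, at 0.13 to 0.16. These distances are from a single gene and those for C1q from a mean of its chains, so they are not compared. Nptx2, a neuronal pentraxin, went from 17.6 ± 1.08 to 39.2 ± 10.3 RPKM (SD, n = 3 each). Abca1, a cholesterol exporter, went from 3.86 ± 0.403 to 9.21 ± 1.56 RPKM (SD, n = 3 each).

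Markers of other cells that can carry complement transcripts also moved. B and plasma cell markers summed to 4.54 to 7.01 RPKM in control and 510 to 1830 RPKM in knockdown libraries, and 3 of 5 tested rose. Nearly all of the knockdown sum was Igkc, an antibody light chain, at 489, 927 and 1740 RPKM, against 2.09, 4.44 and 3.78 RPKM in control libraries. The other rises, Jchain and Mzb1, had control means of 0.634 and 0.245 RPKM and passed the filter through their knockdown level. T and NK cell markers summed to 1.64 to 3.05 and 7.52 to 11.5 RPKM, and 9 of 9 were higher in every knockdown library than in any control library. Over all genes, this held for 20.9% of genes tested and 14.4% of genes under the filter that averaged 5 reads or more. Of the T and NK cell markers, the 2 that passed the filter, Trac and Trbc2, did so through their knockdown level. Their control means were 0.641 and 0.534 RPKM, and both were called. Border macrophage and monocyte markers summed to 2.74 to 3.17 and 9.01 to 18.3 RPKM. Ly6c2 was the largest single part of that sum in every knockdown library. Of the 10 genes in that list 4, Ly6c2, Plac8, Ms4a7 and Ccr2, were higher in every knockdown library than in any control library. The shares over all genes are those given for the T and NK cell markers. For the rest of the list, Mrc1, Cd163, Lyve1, Pf4, Clec4n and F13a1, the groups overlapped. In the same list 6, Mrc1, Cd163, Lyve1, Ccr2, Clec4n and F13a1, stayed below 1 RPKM in all libraries. Ly6c2 rose (log2 change 2.33, limma adjusted p = 0.0317) after passing the filter through its knockdown level, at 0.427, 0.253 and 0.441 RPKM in control and 2.98, 4.41 and 14.1 RPKM in knockdown libraries. Ms4a7 averaged 0.32 ± 0.0291 and 1.03 ± 0.397 RPKM, and Plac8 averaged 0.543 ± 0.161 and 1.65 ± 0.509 RPKM (SD, n = 3 each; limma adjusted p of Plac8 0.0515). None of the marker lists had a gene at 0 in all libraries. Their part in the complement result was not tested.

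Neutrophil markers, of which 3 were tested, had 0 calls and summed to 3.85 to 9.74 RPKM in control and 1.59 to 7.64 RPKM in knockdown libraries. Astrocyte markers had 0 rises and 1 fall, that of Slc1a2, among 12, with sums of 905 to 1010 and 899 to 985 RPKM. Within these sums mean RPKM went from 175 to 135 for Slc1a2, 284 to 238 for Aldoc and 281 to 346 for Gfap. In every knockdown library 4 of the 12 were lower than in any control library and 0 were higher, against 10.7% and 20.9% of genes tested. Choroid plexus markers had 0 calls among 9, with sums of 117 to 4870 and 70.3 to 2710 RPKM. Fibroblast and meningeal markers had 0 calls among 8, with sums of 25.7 to 75.3 and 22.1 to 54.1 RPKM, and endothelial markers 0 among 8, with sums of 62.3 to 80.0 and 65.4 to 85.6 RPKM. Hepatocyte genes, whose cells make most plasma complement, summed to at most 1.44 RPKM in any library. Of 14 interferon response genes 6 rose, 0 fell and 8 did not pass, with a median of 0.60, and sums of 145 to 225 and 284 to 306 RPKM.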

How the data were processed

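RNA of 6 hippocampus libraries was compared, grouped by title. The deposited values are RPKM, computed by the authors, in 1 file per library. TopHat2 2.0.12, Bowtie2 2.0.6 and build mm39 are named per the submitters' processing notes. The sources used here do not give the counter, its annotation, its strand setting or its handling of reads that map to several places. GENCODE M21 gave symbols for 29805 of 29872 identifiers.

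Reads and depths were recovered from the steps of the RPKM values: with annotated exon lengths, 91.9% of genes gave whole numbers in all 6 libraries (tolerance 0.01 read), and 99.5% were resolved when a gene's own step was allowed. No library repeated another (lowest chi-square per degree of freedom 4.04).

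Log2(RPKM + 1) values were fitted with limma 3.58.1 (R 4.3.3) with a mean-variance trend, for genes averaging 1 RPKM or more, with Benjamini-Hochberg adjustment over all genes fitted. The script was tested on simulated data. Exact permutation tests used SciPy 1.17.1.

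The 9 genes and all lists were chosen with earlier results of these data known. Named are the 9, C4a, Hepacam, the closest profiles, and of each other group the genes past the threshold (up to 6 with the smallest p) or else the 2 with the smallest p. C1s1, C1s2, Cfb, Fcna, C4bp, Hc, Cd55, Cd59a and the markers were named after their values were seen. Alternatives were other scalings, filters, a pseudocount of 0.1, no trend, array weights, a replicate block, thresholds of 0.01 and 0.1, log2 Ttr as a covariate, limma-voom, and libraries left out. For 1 other complement gene the values are not reported here.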

Additional observations from a re-analysis of the deposited data

How the results depend on the processing

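All 8 complement genes tested kept their direction under the settings tried, and the number that rose was 4 to 6, with a median log2 change of 0.85 to 0.99. C1qb, C1qc, C3 and C4b were called under each setting that tested them; a filter at 5 RPKM removed C3. C1qa was at 1.0 with the replicate block (adjusted p = 0.0516) and 0.87 to 1.1 with single libraries left out. Serping1 was not called at 0.87 with no filter, 0.87 with the replicate block and 1.08 without both libraries low in choroid plexus, and ranged from 0.70 to 0.99 with single libraries left out. Of all genes, 842 were called, against 169 with no filter, 157 with the replicate block, 121 without both libraries low in choroid plexus, 110 and 1677 at thresholds of 0.01 and 0.1, and 85 to 880 with single libraries left out. Of the 842, 587 were higher and 255 lower. Quantile normalization gave 390 and 341, and scaling by the median gene 336 and 347. The replicate block left 4 complement genes called and lost C1qa and Serping1. Same-numbered libraries deviated from their group means with correlations over genes of -0.21, 0.02 and -0.14. The highest correlation, 0.27, was between shControl replicate 1 and shHepaCAM replicate 3, the libraries lowest in choroid plexus. Because libraries also differed in choroid plexus, these correlations cannot decide whether the numbers pair them. Depth limits C5ar1, C4a, C1s1, C1s2 and Cfb, which rest on at most 92 reads per library.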

Other observations

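Of the 13 membrane regulators listed, 2 are given here for their order of libraries. Cd59a, an inhibitor of the terminal complex, measured 1.65, 8.15 and 6.00 RPKM in the control and 3.63, 2.36 and 1.18 RPKM in the knockdown libraries, in replicate order. Cd55, which dissociates the C3-cleaving enzymes, measured 0.879, 1.69 and 1.53 RPKM, and then 1.09, 0.881 and 0.667 RPKM. For both, the lowest library of each group was the one lowest in Ttr. Neither passed the test between the groups (limma adjusted p = 0.361 and 0.315).

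Fcna, a ficolin of the lectin pathway, had 2, 4 and 1 reads in control and 7, 5 and 6 reads in knockdown libraries, and C4bp, which binds C4, averaged 0.0961 ± 0.0147 and 0.0336 ± 0.0185 RPKM (SD, n = 3 each), both under the filter. With no filter their limma adjusted p-values were 0.193 and 0.319. C4bp was lower in every knockdown library than in any control library, as were 4.82% of genes under the filter that averaged 5 reads or more.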
